A study of Drosophila melanogaster with 35 samples.

Results

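Male flies that drank 3% hydrogen peroxide in 1% sucrose for 2 days were compared with males of the same age that drank 1% sucrose alone. The comparison takes in the 4 arrays titled Hydrogen peroxide and the 4 arrays titled Sugar, which are 8 of the 35 Affymetrix DrosGenome1 arrays of the series. Each array carried RNA from the 25 flies of 1 vial, and the labels call the vials of a treatment biological replicates. All flies were males of the genotype w[1118]/+; P{w+ rtTA}(3)[E2]/+, from a cross of Oregon-R wild type flies with a w[1118] strain carrying an rtTA transgene. They were raised on standard food at 25 degrees, and those of the sugar and hydrogen peroxide groups were 11 days old when RNA was taken. The 2 days in a sucrose vial and the age are therefore shared by both groups, and hydrogen peroxide in the drinking solution is the labelled difference. Stress controls (4 arrays, 9 days old, standard food) and flies exposed to ionizing radiation and then kept for 2 days in sucrose vials (4 arrays, 11 days old) are cited beside the results where they help to place a level. The number of flies alive in each vial at sampling is not stated.

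Hydrogen peroxide is a reactive oxygen species that cells make in small amounts and remove with catalase, peroxiredoxins and glutathione-dependent enzymes. In flies, as in mammals, the transcription factor Nrf2 (encoded by cnc) and its repressor Keap1 govern many detoxification genes, of which GstD1 is the best known reporter. Damaged proteins call on heat shock proteins and autophagy, and hydrogen peroxide also acts on JNK, NF-kappaB and growth factor signaling. A fly takes peroxide up through the gut, the tissue that makes the digestive enzymes and much of the first immune defence.

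The deposited values are linear signal intensities, and the 4 sugar arrays were on a lower scale than the rest, with trimmed means from 107 to 167 against 999 on every other array. All 35 arrays were therefore quantile normalized before the log2 step, and every signal below is a normalized signal. After this step the arrays of 1 treatment correlated with each other at r from 0.957 to 0.968 (hydrogen peroxide) and from 0.975 to 0.982 (sugar), and between treatments at r from 0.908 to 0.939. The actin 3′ to 5′ signal ratio, a measure of RNA integrity, ran from 1.88 to 2.34 on the hydrogen peroxide arrays and from 2.65 to 3.51 on the sugar arrays, which do not overlap. The same ratio of eIF4a did not overlap either (2.49 to 3.02 and 3.43 to 4.17), whereas that of GAPDH did (1.88 to 2.19 and 1.98 to 2.19). The part of the actin gap in the results was not tested on its own, but a fit with the actin ratio as a covariate, added after seeing the data, is given beside the counts. The scale of the sugar arrays and the treatment cannot be told apart. As the male label implies, 42 testis genes had summed signals of 219979 to 308278 on the 8 arrays, and 22 genes typical of females summed to 3422 to 4168.

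Of 10827 genes tested, 713 were higher in hydrogen peroxide than in sugar and 1000 were lower, at a false discovery rate of 1% and a change of at least 1.5-fold. These are 6.59% and 9.24% of all genes, and they are the background against which each group of genes below is read. Among all genes, 17.3% had every hydrogen peroxide array above every sugar array, and 15.3% had all of them below. A lack of overlap is therefore common and is not a call by itself. The called changes were often large: 305 genes rose and 535 fell by at least 2-fold. Of these, 12 rose and 25 fell by at least 8-fold. Calls were more frequent among genes of high signal, with 12.4% higher and 19.4% lower in the top 25% of genes by mean signal and 2.62% and 1.40% in the bottom 25%. With the actin ratio as a covariate the counts were 748 and 993. That fit was made over all arrays, and replicate 2 of the old flies, with a ratio of 283, stood far from the rest. The slope for the ratio leans on that array, and the ratios of the hydrogen peroxide and sugar arrays did not overlap. These counts therefore cannot show what part RNA integrity has in the results. Fold changes are ratios of signal plus 38.9 (the 10th percentile of all normalized values), which understates the change of genes with low signal, and errors beside log2 values are standard errors of the limma fit.

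**Figure D1:**
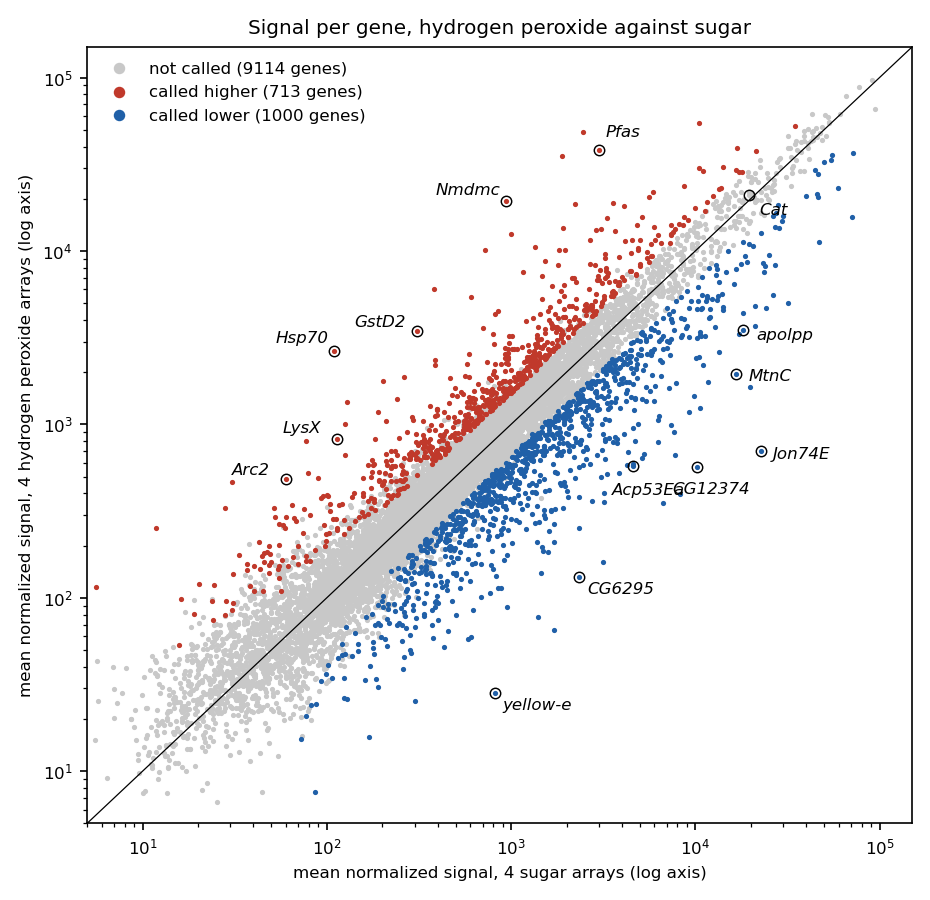
Mean normalized signal of each of 10827 genes on the 4 sugar arrays (x, log axis) and the 4 hydrogen peroxide arrays (y, log axis); the line marks equal signal, red and blue mark the 713 genes called higher and the 1000 called lower, and circles mark named genes. Nmdmc, Pfas, Hsp70 and GstD2 lie farthest above the line among the circled genes, Jon74E, CG12374, CG6295 and yellow-e far below it, and Cat next to it.

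The strongest rise was in Nmdmc, the mitochondrial enzyme that oxidizes methylene-tetrahydrofolate and so passes 1-carbon units toward purine synthesis. Its signals were 16876, 19297, 19935 and 21177 on the hydrogen peroxide arrays and 894, 1085, 1034 and 751 on the sugar arrays. All 4 peroxide arrays lay above all 4 sugar arrays, at 19.9-fold (log2 4.31 ± 0.20, adjusted p = 6.58e-17). Of 12 measured enzymes of purine synthesis 7 were higher and 0 lower, with a list median of log2 0.98 beside 0.02 over all genes. Pfas, which carries out the fourth step of the pathway, gave 33960, 41317, 44054 and 33540 in peroxide and 2999, 2930, 3374 and 2700 in sugar, a 12.5-fold difference (log2 3.65 ± 0.11, adjusted p = 7.05e-21). Gart, the trifunctional enzyme of earlier and later steps (ade3), gave 10644, 12560, 14859 and 11754 against 844, 1075, 1080 and 1011 (log2 3.58 ± 0.12, adjusted p = 7.05e-21). For both genes all peroxide arrays lay above all sugar arrays.

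The other purine enzymes that rose changed less. Adsl, which acts both in this pathway and in the step to AMP, rose 2.95-fold, Prps, which makes the activated ribose that the pathway starts from, 2.71-fold, and Paics (CG3989) 2.63-fold, from means of 1430, 8724 and 10980 in sugar. Adss and Prat2 were also called, at log2 1.33 and 0.62. Prat, the other gene for the first enzyme, did not pass the test at log2 0.13, nor did ras and bur, the enzymes that lead to GMP, at log2 -0.28 and -0.06.

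Folate, serine and glycine metabolism gave 9 higher and 2 lower of 17 members, with a median of log2 1.2. aay, the phosphoserine phosphatase that completes serine synthesis, had signals of 17384, 22675, 17656 and 16797 in peroxide and 2274, 2145, 2087 and 2403 in sugar. The peroxide arrays were 8.19-fold above the sugar arrays (log2 3.03 ± 0.11, adjusted p = 1.11e-19), without overlap. The enzymes of the 2 steps before it, CG6287 and CG11899 by their annotation as phosphoglycerate dehydrogenase and phosphoserine aminotransferase, rose by log2 1.2 and 1.53. Shmt, which splits serine into glycine and a 1-carbon unit, gave 7544, 9482, 11878 and 11497 against 1828, 1562, 1835 and 2047, and CG3999, the decarboxylating subunit of the glycine cleavage system, rose 4.3-fold. Gnmt and Ahcy, which use and recycle the methyl donor S-adenosylmethionine, rose by log2 1.88 and 1.55, whereas Sam-S, which makes it, stood at log2 0.30 and was not called. The members that fell were CG8665, a formyl-tetrahydrofolate dehydrogenase by annotation (log2 -1.60 ± 0.22), and Mthfs, which returns a storage form of folate to the cycle (log2 -1.11 ± 0.16). Tdh, threonine dehydrogenase, which yields glycine, was outside the list and among the 12 largest rises of all genes, with 4756, 5584, 5964 and 5452 in peroxide against 632, 591, 585 and 603 in sugar.

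**Figure D2:**
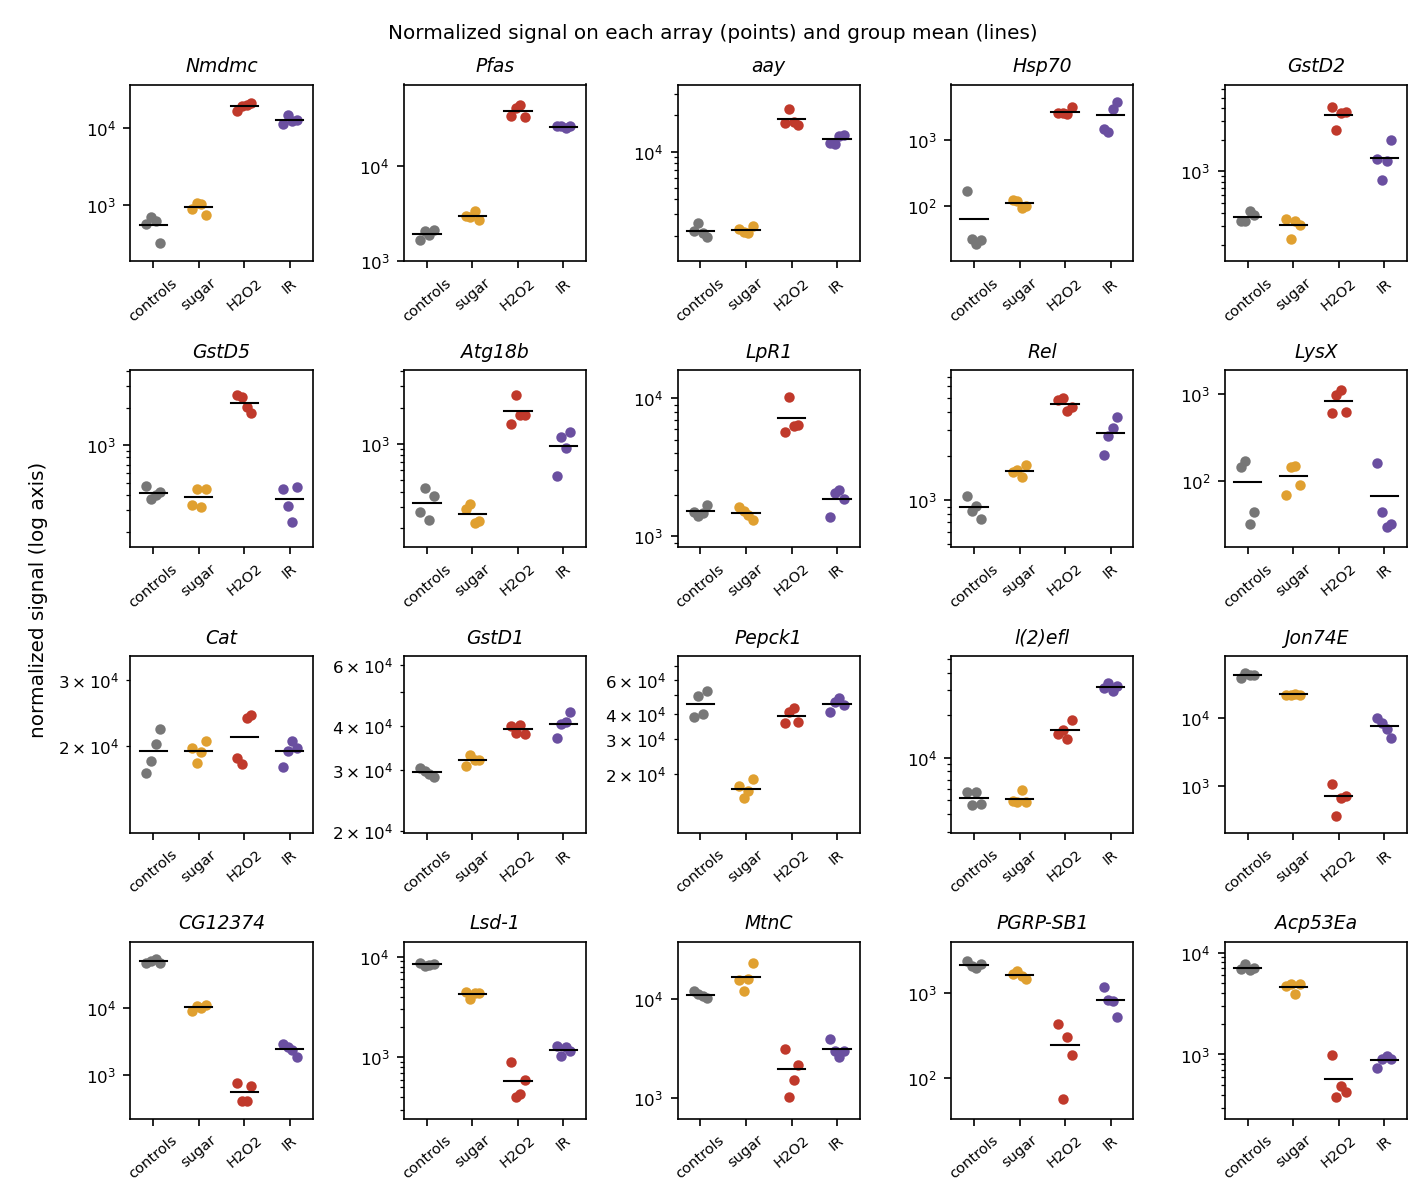
Normalized signal (log axes, 1 panel per gene) on each of the 4 arrays of stress controls, sugar, hydrogen peroxide (H2O2) and ionizing radiation (IR), with lines at the group means. In the first 10 panels all hydrogen peroxide points lie above all sugar points, in the last 6 all lie below, and for Cat they overlap.

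Genes on the list of superoxide and peroxide removal were called near the background share. Gtpx and Prx3, which also act on peroxides and were called, are counted in the glutathione and thioredoxin system below. Cat, the catalase gene, gave 18658, 17971, 23810 and 24190 in peroxide and 19844, 18075, 19297 and 20669 in sugar, ranges that overlap (log2 0.11 ± 0.10, adjusted p = 0.481, 95% interval -0.10 to 0.32). Sod2, the mitochondrial superoxide dismutase, was at 3420 ± 194 (SD, n = 4) in peroxide and 4048 ± 189 in sugar, with all peroxide arrays below all sugar arrays, but the difference of log2 -0.24 did not pass the test (adjusted p = 0.0391). Of the 8 measured genes of superoxide and peroxide removal 1 was called, or 12.5%, beside 15.8% of all genes in either direction. It was Irc, the immune-regulated catalase, at 1.53-fold higher. Irc lost its call when hydrogen peroxide replicate 1 or 3 or sugar replicate 4 was left out, since its change then fell below 1.5-fold (log2 from 0.53 to 0.58).

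In the glutathione and thioredoxin system 1 of 18 members was higher and 3 lower, with a median of log2 -0.02. Gtpx, a glutathione peroxidase homolog that acts on lipid peroxides, gave 13759, 14011, 15116 and 19485 against 8836, 8768, 8582 and 8620 and was the member called higher, at 1.77-fold. Gclc, the catalytic subunit of the enzyme that limits glutathione synthesis, was at 1191, 1536, 1726 and 2212 in peroxide and 671, 771, 812 and 971 in sugar; the arrays did not overlap, but the 1.99-fold difference missed the threshold (log2 0.99 ± 0.30, adjusted p = 0.0132) and passed it only without hydrogen peroxide replicate 1 (adjusted p = 0.00892). Trxr1, the thioredoxin reductase that keeps this system reduced in flies, was 1.4-fold higher at an adjusted p of 9.66e-05, which is below the 1.5-fold limit. The members called lower were the glutaredoxin Grx1 (log2 -0.80), the glutathione-degrading enzyme Ggt-1 (log2 -0.77) and the mitochondrial peroxiredoxin Prx3 (log2 -0.62, not called without sugar replicate 2 or 4, at log2 -0.58 and -0.57). The regulators cnc and Keap1 were not called: cnc differed by log2 -0.25 ± 0.22 (adjusted p = 0.437) and Keap1 by log2 -0.37 ± 0.20 (adjusted p = 0.172). The 4 probe sets of cnc disagreed, with values from log2 -0.25 to 0.73, and averaging them turned the sign to 0.35, still not called.

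Glutathione S-transferases couple glutathione to reactive compounds, and their genes went both ways: of 37 measured, 8 were higher and 9 lower. In the GstD cluster on chromosome arm 3R 5 of 11 genes were higher and 1 lower, and among the 14 GstE genes on 2R 1 was higher and 6 lower; this contrast between clusters is a description and was not tested. GstD2 gave 4094, 2478, 3616 and 3634 in peroxide and 357, 229, 341 and 312 in sugar, 9.97-fold apart (log2 3.32 ± 0.18, adjusted p = 2.74e-15). GstD5 gave 2530, 2451, 2016 and 1806 against 331, 448, 319 and 447, 5.27-fold apart. Between GstD2 and GstD5 along the chromosome lie GstD3 and GstD4, which rose by log2 0.63 and 0.96, and GstD9, on the other side, rose by log2 1.23. GstD1, at 39186 ± 1209 (SD, n = 4) in peroxide and 31970 ± 989.5 in sugar, lies inside the same run of genes. Its arrays did not overlap and its adjusted p was 0.00339, but the change of 1.23-fold was below 1.5-fold. GstD7 changed by log2 -1.35 ± 0.33 from a low signal, and that call was lost without hydrogen peroxide replicate 4 (adjusted p = 0.0201) or sugar replicate 3 (adjusted p = 0.0114).

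GstE10 fell most in the family, from 899, 904, 591 and 1271 in sugar to 186, 85.8, 246 and 141 in peroxide, 4.74-fold lower without overlap. GstE3, GstE5, GstE6 and GstE8, neighbours in that cluster, changed by log2 values from -1.21 to -0.72, and GstE12, which lies apart from it, by log2 -1.10. GstE11 was the member called higher, at log2 0.72. Outside both clusters, GstZ2 of the zeta class rose 2.37-fold and Mgstl, a microsomal transferase, fell 2.41-fold on its brightest probe set, and its 3 probe sets ran from log2 -1.56 to -1.27. Genes of these clusters are similar in sequence, and how far probe sets share signal between them was not tested.

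**Figure D3:**
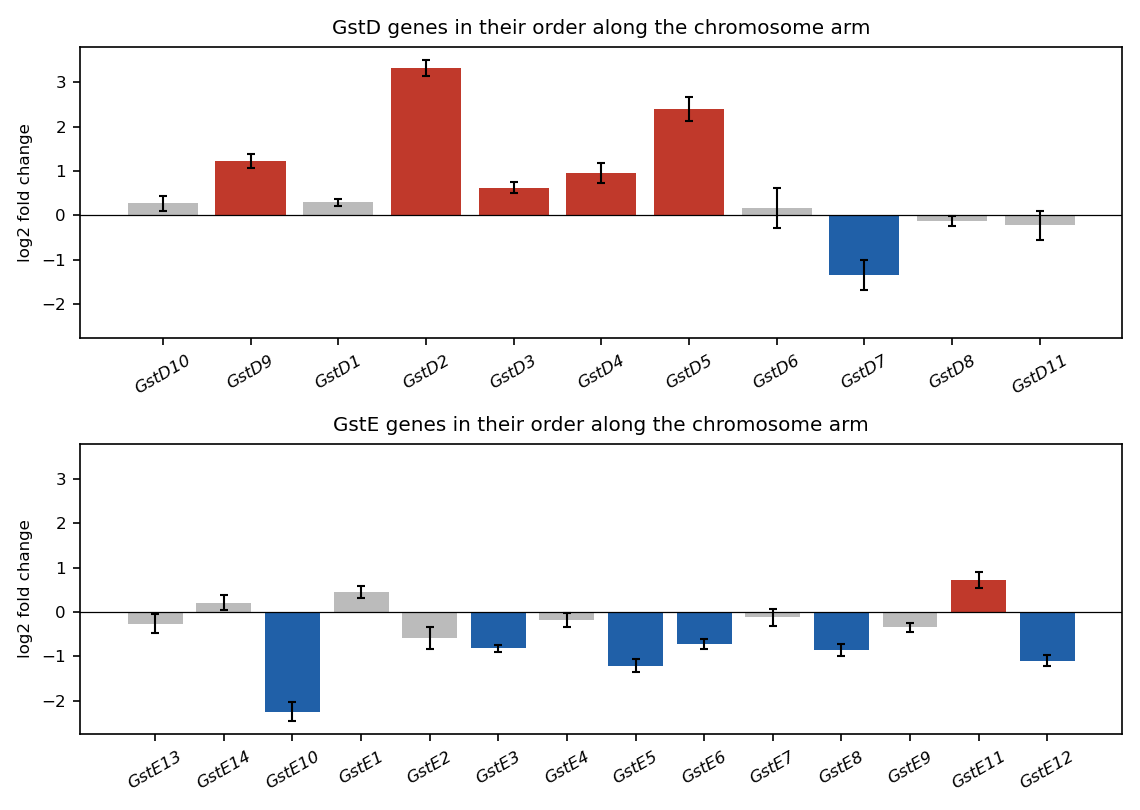
Log2 fold change of hydrogen peroxide over sugar (bars, with standard errors of the limma fit) for 11 GstD genes and 14 GstE genes in their order along the chromosome arm (not to distance); red bars were called higher, blue bars called lower and grey bars not called. GstD2 and GstD5 are the tallest bars of their cluster, at 3.32 and 2.40, and GstE10 is the deepest of the other at -2.25.

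Other detoxification families were lower more often than higher. Of 85 cytochrome P450 genes 9 were higher and 22 lower, with a median of log2 -0.17, and of 33 UDP-glycosyltransferases 0 were higher and 8 lower. Cyp4ac3 had the largest rise, from 647, 604, 608 and 504 to 1945, 2606, 2598 and 3044, whereas its relative Cyp4ac2 changed by log2 -1.32. Cyp4d14 gave 133, 94.4, 104 and 96.6 in peroxide against 758, 714, 814 and 796 in sugar, 5.57-fold lower. Of 8 genes of the pentose phosphate pathway and of NADPH supply 0 were higher and 3 lower: Taldo (transaldolase), Men-b (a malic enzyme) and CG8036 (a transketolase by annotation) changed by log2 -1.36, -1.30 and -0.79; CG8036 was no longer past 1.5-fold without hydrogen peroxide replicate 2 (log2 -0.56). Among metal-binding proteins MtnC, a metallothionein, fell 8.93-fold, from 15744, 12168, 15812 and 23100 to 3090, 1016, 1508 and 2140. MtnA, another metallothionein, was not called at log2 0.09. Fer2LCH, the ferritin light chain that stores iron, rose 1.75-fold and Tsf1, which carries iron in the hemolymph, fell 2.59-fold.

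Genes of the inducible heat shock response gave 6 higher and 1 lower of 10 measured, with a median of log2 0.98. Hsp70, whose near-identical gene copies are counted as 1 gene, gave 2553, 2474, 2463 and 3077 on the peroxide arrays and 124, 121, 92.6 and 100 on the sugar arrays. The groups were 18.1-fold apart (log2 4.17 ± 0.36, adjusted p = 7.1e-11), without overlap. The small heat shock protein l(2)efl gave 14795, 15592, 13542 and 18552 against 4928, 4824, 5933 and 4839, 3.02-fold apart, and Hsp26, another of the small class, was 2.15-fold higher. Hsp68, a close relative of Hsp70, and DnaJ-1, its Hsp40 partner, rose 2.74-fold and 2.26-fold, and stv, a BAG-domain co-chaperone, 1.81-fold. Hsp83, the fly Hsp90, whose probe set was named through the study's tables and enters no count, gave 21562, 21748, 19485 and 22675 in peroxide and 12612, 11679, 12027 and 13319 in sugar (log2 0.78 ± 0.13, adjusted p = 1.98e-05). Its signals in stress controls, 15116 to 18889, lay between the 2 groups. Sugar minus stress controls was log2 -0.44 and peroxide minus stress controls log2 0.35, so the gap to sugar holds a lower sugar level as well. Hsp27 (log2 0.48) and Hsf (log2 -0.10) were not called, and the list member called lower stood at log2 -0.59. Hsp23 and Hsp67Bc, like Hsp83, were named through the study's tables and enter no count. Hsp23 was not called at log2 0.26. Hsp67Bc was called higher at log2 1.22 ± 0.26 (adjusted p = 0.000512), from low sugar signals of 23.3 to 61.2. The 3 probe sets shared by Hsp22 and CG4456 stood at log2 -0.61, 0.13 and -0.36, none of them called.

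Chaperones that fold proteins under normal conditions moved less, with a median of log2 0.37: of 18, 1 was higher (CCT1, log2 0.71) and 2 were lower. Of the other chaperonin subunits CCT3 to CCT8 stood at log2 0.26 to 0.45 and CCT2 at -0.02, none of them called. Hsc70-5, the Hsp70 of the mitochondrial matrix, fell 2.32-fold and CG11267, a mitochondrial Hsp10 homolog by annotation, 1.82-fold, while their partner Hsp60A stood at log2 -0.01. The subunits of the proteasome gave 2 higher and 0 lower of 30, near the background share, with Prosbeta3 at 1.64-fold. Their median was log2 0.26, and their sums were higher in peroxide without overlap (106981 to 110701 against 90351 to 92994 in sugar). Of 29 aminoacyl-tRNA synthetases 4 were higher and 2 lower, among them ValRS at 2.27-fold higher.

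Of 25 autophagy genes 11 were higher, 0 lower and 14 not called, with a median of log2 0.71. Atg18b, a lipid-binding protein of the growing autophagosome membrane, gave 1461, 2556, 1727 and 1725 in peroxide and 286, 313, 221 and 227 in sugar. The 6.26-fold gap (log2 2.65 ± 0.25, adjusted p = 4.31e-10) was the largest of the list. The kinase Atg1 that starts the process rose 3.06-fold and its partner Atg101 3.21-fold, whereas Atg13 of the same complex stood at log2 -0.48 and was not called. Atg2 and Atg18a, which work together at the membrane, rose 2.89-fold and 3.1-fold. The conjugation genes were split. Atg3, Atg4a and Atg8a were called higher, at log2 0.75, 0.90 and 0.73. Atg5, Atg7, Atg12 and Atg16 were not called, with values from log2 -0.30 to -0.11, nor were Atg4b, Atg8b and Atg10, at log2 0.31, 0.46 and -0.05. ref(2)P, the fly p62 that delivers ubiquitinated cargo, gave 8793, 11610, 10236 and 8901 against 5393, 5821, 4949 and 5651, 1.8-fold apart.

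Genes that respond to fasting and insulin gave 10 higher and 4 lower of 24. Thor, the translation inhibitor 4E-BP that FOXO induces, was named through the study's tables and stands outside the count. It gave 54172, 66324, 69726 and 56898 in peroxide and 14068, 16067, 15520 and 14246 in sugar (log2 2.04 ± 0.12, adjusted p = 6.08e-14). The insulin receptor gene InR rose 2.65-fold and its substrate chico 3.13-fold. foxo itself gave 563, 665, 688 and 903 against 304, 135, 197 and 302 (log2 1.48 ± 0.41, adjusted p = 0.00546), and this call was lost when hydrogen peroxide replicate 2, 3 or 4 or sugar replicate 2 or 3 was left out (adjusted p from 0.0116 to 0.0281). Pepck1, the gluconeogenic enzyme, rose 2.32-fold, from 17298, 15116, 16284 and 18721 to 36161, 41052, 43124 and 36418, and Pepck2 2.87-fold. On standard food Pepck1 was at 45360 ± 6788 (SD, n = 4), so that the sugar level lay below that of the stress controls (log2 -1.42 ± 0.10), and peroxide minus stress controls was log2 -0.20, not called. The transcription factor sug, which sugar feeding induces, fell 4.71-fold, and tobi, an alpha-glucosidase under insulin and adipokinetic hormone control, fell 4.01-fold. AkhR, the receptor of that hormone, changed by log2 -1.32.

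Lipid genes gave 4 higher and 18 lower of 40, with a median of log2 -0.51. Lsd-1, the perilipin that coats fat droplets, gave 891, 403, 428 and 596 in peroxide and 4519, 3778, 4367 and 4367 in sugar, 7.26-fold lower (adjusted p = 6.54e-15). apolpp, the apolipoprotein of the main lipid carrier of the hemolymph, fell 5.28-fold. The synthesis genes ATPCL, FASN1, Desat1 and ACC changed by log2 values from -1.52 to -0.62. Those that rose were LpR1, a receptor for lipid carriers (4.65-fold), the phosphatidate phosphatase Lpin (4.5-fold), the lipid regulator SREBP (2.27-fold) and the fat-body lipase bmm (2.22-fold).

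**Figure D4:**
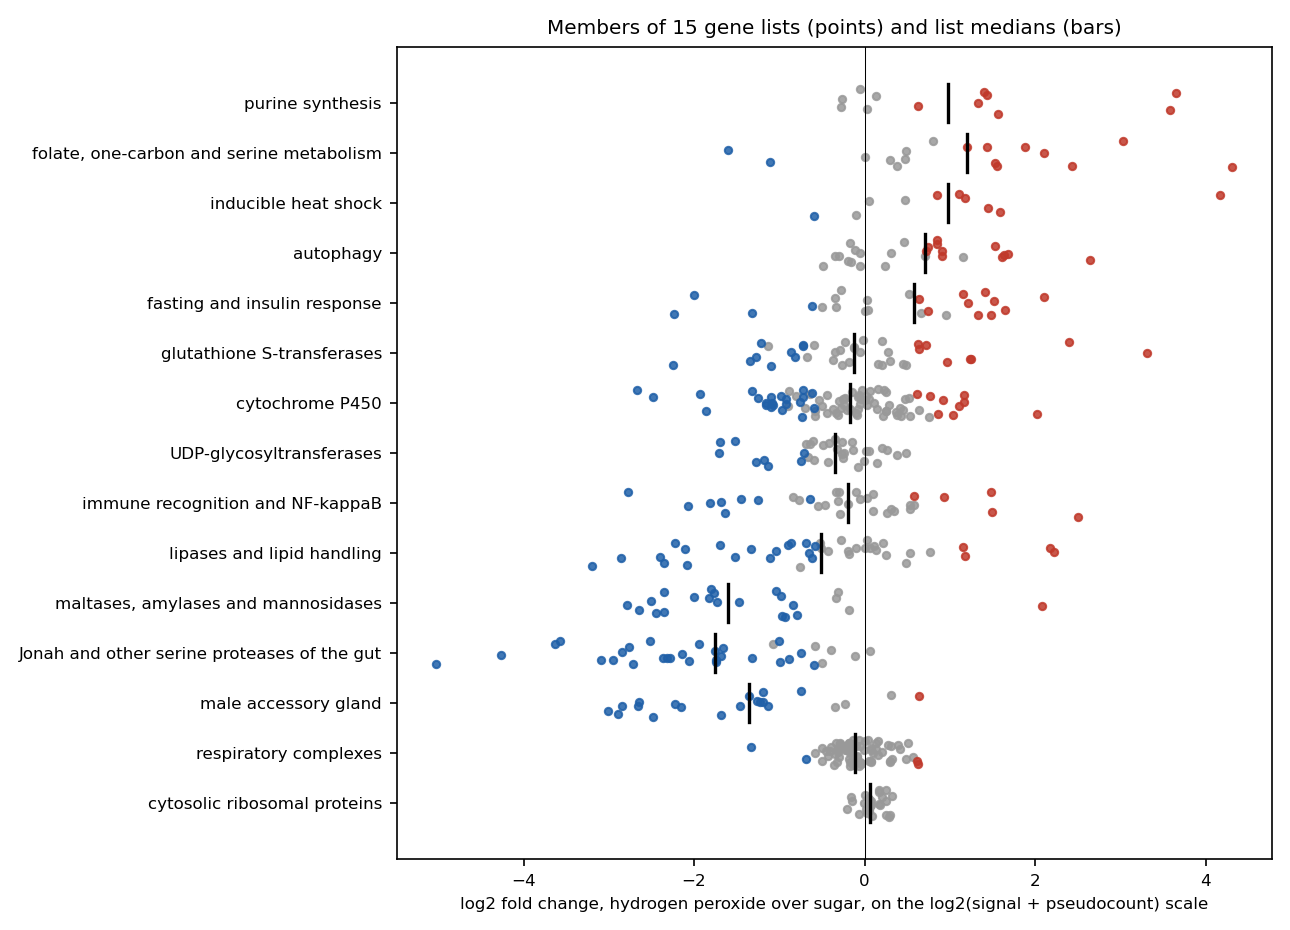
Log2 fold change of hydrogen peroxide over sugar (x) for every measured member of 15 gene lists (points, spread vertically at random; red called higher, blue called lower, grey not called), with bars at the list medians. Purine, folate, heat shock and autophagy genes reach to the right, gut proteases, maltases and accessory gland genes to the left, and the respiratory and ribosomal genes sit around 0.

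Gut proteases and sugar-cleaving enzymes had the lowest medians of all lists examined. Of 33 Jonah and other serine proteases of the gut 27 were lower and 0 higher, with a median of log2 -1.76. Jon74E gave 1065, 365, 655 and 721 on the peroxide arrays and 22528, 22442, 23207 and 22240 on the sugar arrays. It fell 32.5-fold (log2 -5.02 ± 0.20, adjusted p = 6.18e-19), the largest change in either direction. Jon99Ci gave 437, 258, 440.3 and 458 against 8291, 7366, 8366 and 8924, and the trypsin betaTry 1594, 1380, 1939 and 1642 against 20234, 16797, 21666 and 20767, 19.3-fold and 11.9-fold lower. Among the 12 largest falls of all genes were also the lipase CG6295 (19.8-fold) and the carboxypeptidases CG12374 (17.4-fold) and CG8562 (13.8-fold), named by their annotation. The signals of CG6295 were 414, 37.4, 32.0 and 44.5 in peroxide, where replicate 1 stood well above the other 3, and 2466, 2103, 2558 and 2198 in sugar; without that array the change moved from log2 -4.30 to -4.95. The 33 proteases together summed to 109423, 65049, 93488 and 104467 on the peroxide arrays and to between 298666 and 318658 on the sugar arrays.

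Of 22 maltases, amylases and mannosidases 18 were lower and 1 higher, with a median of log2 -1.60. Mal-A6 fell 6.9-fold, Mal-A8 6.25-fold and the lysosomal mannosidase LManI 5.46-fold. The exception was Mal-B2, with 10494, 13376, 12463 and 9987 in peroxide and 2424, 2886, 2874 and 2603 in sugar, 4.23-fold higher. Markers of the gut epithelium itself, which the protease and maltase lists do not hold apart from LManII, gave 7 lower and 1 higher of 17, and their sums did not overlap, at 10817 to 11738 in peroxide and 18533 to 19799 in sugar. Alp9, an alkaline phosphatase of the list, fell 4.75-fold, whereas the stem cell marker esg stood at log2 -0.23, the enteroendocrine marker pros at -0.51 and its peptide AstC at -0.03, none of them called. RNA of whole flies does not tell fewer cells of a type from less RNA per cell. Of 20 genes of the peritrophic matrix, mucins and chitin 4 were higher and 2 lower, and their sums were higher in peroxide without overlap (50904 to 54407 against 33645 to 36446). obst-A, a chitin-binding protein, fell 4.91-fold and Peritrophin-15a 2.38-fold. The mucin-related gene Mur18B and the chitinase Cht5 rose 2.15-fold and 2.22-fold, and the chitinase Cht4 rose 6.35-fold, from 118, 138, 146 and 102 to 1080, 1142, 895 and 918.

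Seminal fluid genes of the male accessory gland were also lower for the most part, with 17 lower and 1 higher of 21 and a median of log2 -1.35; 1 of them, Sems, is also on the gut protease list. Acp53Ea gave 989.5, 386, 492 and 427 in peroxide and 4674, 4879, 3957 and 4866 in sugar, 8.06-fold lower (adjusted p = 3.91e-15). Acp26Aa and Acp36DE, 2 seminal proteins that act in the mated female, fell 7.4-fold and 7.17-fold, and Ebp, a protein of the ejaculatory bulb, 6.29-fold. SP, the sex peptide, changed by log2 -1.22, whereas Acp26Ab and Mst57Da were not called at log2 -0.23 and -0.34. The summed signal of the 21 genes was 126702, 89015, 103514 and 97704 in peroxide and 239448 to 255923 in sugar. Testis genes were near the background share, with 3 higher and 1 lower of 42, but their sums did not overlap, at 285256 to 308278 in peroxide and 219979 to 243563 in sugar.

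Of 23 muscle genes 3 were lower and 1 higher, and their sums overlapped (140924 to 153759 in peroxide, 137062 to 146138 in sugar). Photoreceptor and neuronal genes had 1 call in each direction, of 18 and 24 measured, but their sums did not overlap: photoreceptor genes summed to 86000 to 98402 in peroxide and 77148 to 80162 in sugar, and neuronal genes to 39528 to 44053 in peroxide and 53920 to 64610 in sugar. These few calls moved with single arrays: the lower neuronal genes were 3 without hydrogen peroxide replicate 2, 0 without sugar replicate 1 and 2 without sugar replicate 3, the higher ones 0 without hydrogen peroxide replicate 4, and the lower photoreceptor genes 2 without hydrogen peroxide replicate 2 or sugar replicate 3. Fat body genes split, with 4 higher and 5 lower of 12, and their sums overlapped (80416 to 99126 in peroxide, 85308 to 91833 in sugar). Odorant-binding proteins gave 8 lower and 0 higher of 36. Obp56g, which the accessory gland list also holds, gave 6534, 3273, 4631 and 3721 against 14183, 14681, 14246 and 13643, 3.22-fold lower. The fall of the called genes varied between the peroxide vials: of the 1000 genes called lower, 476 were brightest on replicate 1 of the 4 peroxide arrays and 481 were dimmest on replicate 2.

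**Figure D5:**
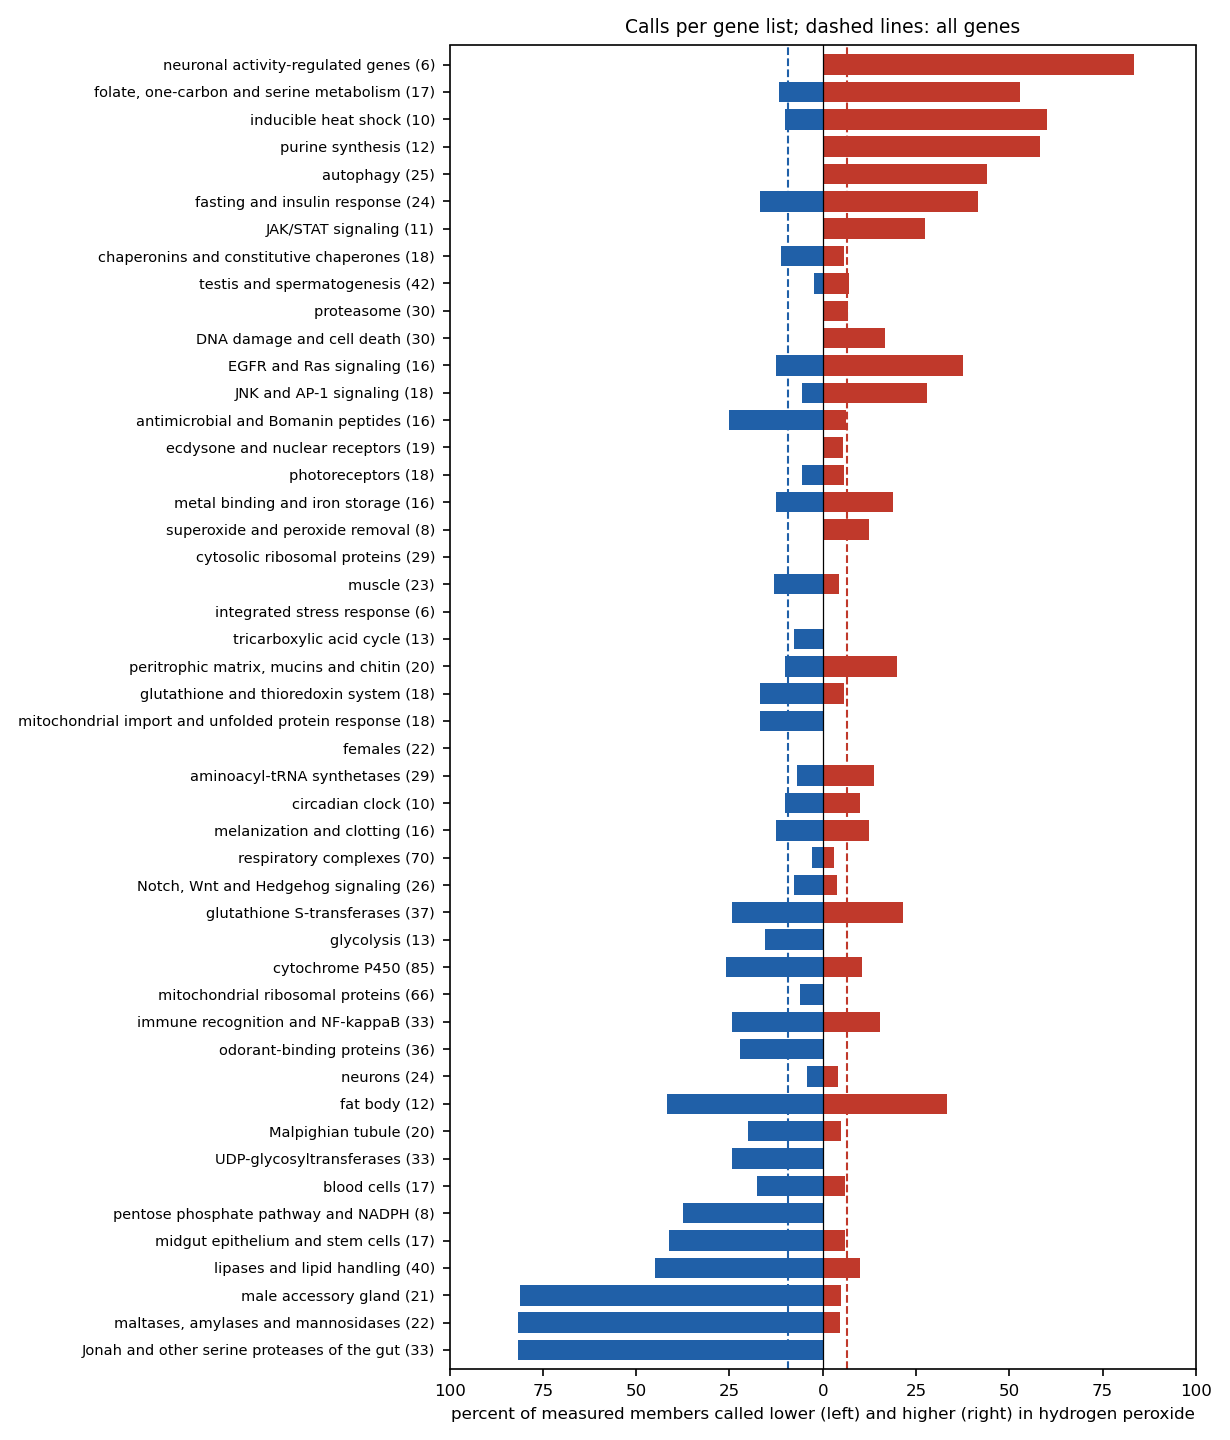
Percent of the measured members of each gene list (number in parentheses) called higher (red, to the right) and lower (blue, to the left) in hydrogen peroxide, ordered by the median log2 fold change of the list; dashed lines mark 6.59% and 9.24%, the shares over all genes. Gut proteases, maltases and accessory gland genes have 81.8%, 81.8% and 81.0% of members lower, and the activity-regulated, heat shock, purine and folate lists have 83.3%, 60.0%, 58.3% and 52.9% higher.

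Immune genes moved both ways. Rel, the NF-kappaB factor of the Imd pathway, gave 4799, 4972, 4053 and 4304 in peroxide and 1553, 1610, 1425 and 1744 in sugar (2.82-fold, adjusted p = 4.07e-10), and cact, the IkappaB of the Toll pathway, 5082, 6287, 5199 and 5444 against 1792, 2057, 1946 and 1977 (2.79-fold), whereas the Toll pathway factors dl and Dif were not called at log2 0.26 and -0.29. Among proteins that recognize or cleave microbial cell walls, PGRP-SB1 fell 6.82-fold, GNBP3 4.21-fold and the amidase PGRP-SC2 3.2-fold, and the other 5 PGRP genes measured were not called. The lysozymes LysD and LysE of the gut fell 3.11-fold and 3.51-fold, but LysX rose 5.65-fold, from 69.3, 145, 150.4 and 89.0 to 610.4, 964, 1110 and 618. The list as a whole gave 5 higher and 8 lower of 33, with 3 higher when hydrogen peroxide replicate 4 or sugar replicate 1 was left out. Antimicrobial and Bomanin peptides, the secreted products of these pathways, gave 1 higher and 4 lower of 16: Drs, the main antifungal peptide, was at 3386, 3242, 2937 and 2214 against 1918, 1886, 1924 and 1724, without overlap but not called (adjusted p = 0.0971), and Drsl5 and BomS4 fell 3.2-fold and 1.93-fold.

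Of 18 genes of JNK and AP-1 signaling 5 were higher (3 without hydrogen peroxide replicate 4) and 1 lower, with a median of log2 0.14. puc, the phosphatase that JNK induces and that limits it, gave 2487, 2686, 2337 and 1975 in peroxide and 956, 996, 915 and 996 in sugar, 2.39-fold apart, and Jra, the fly Jun, rose 2.25-fold. Gadd45, a damage-induced activator of this pathway in flies, rose 2.31-fold. In the JAK/STAT pathway 3 of 11 genes were higher and 0 lower; the receptor gene dome rose 2.64-fold on its brightest probe set (the other stood at log2 0.41), while the ligands upd1 and upd2 had mean signals of 18.6 and 9.51 in sugar, below the added 38.9, and were not called. In the EGFR pathway 6 of 16 genes were higher (3 without hydrogen peroxide replicate 4) and 2 lower; sty, a feedback inhibitor, rose 2.13-fold, and Egfr itself fell 2.17-fold on its brightest probe set (the other at log2 -0.17). Ets21C, a transcription factor downstream of JNK, was chosen after its values were seen and gave 305, 428, 385 and 205 in peroxide against 25.0, 35.7, 35.1 and 15.8 in sugar, 5.42-fold apart; the sugar signals lay below the added 38.9. Notch, Wnt and Hedgehog genes gave 1 higher and 2 lower of 26, near the background share, with a median of log2 -0.12. Their sums were lower in peroxide without overlap (26236 to 30571 against 36913 to 42310 in sugar).

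Among 30 genes of DNA damage and cell death 5 were higher and 0 lower, a count that fell to 2 without hydrogen peroxide replicate 2 and to 3 without hydrogen peroxide replicate 4 or sugar replicate 2. Corp, a p53 target, rose 2.03-fold. p53 gave 646, 785, 681 and 713 against 434, 317, 365 and 444 (log2 0.80 ± 0.22), and its call was lost without hydrogen peroxide replicate 2, 3 or 4 or sugar replicate 2 or 3 (adjusted p from 0.0109 to 0.0245). The activity-regulated genes of neurons, which excitation induces, gave 5 higher and 0 lower of 6: Arc2 gave 416, 501, 399 and 612 against 33.7, 51.3, 51.4 and 103 (5.37-fold) and Arc1 1301, 1654, 1504 and 1994 against 393, 452, 457 and 689 (3.1-fold). Of 10 clock genes vri was higher (2.3-fold) and tim lower (1.7-fold on its brightest probe set, with its 3 probe sets from log2 -0.77 to 0.71, and log2 0.02 when they were averaged). The time of day of sampling is not stated.

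Few genes of energy metabolism in the mitochondrion were called. Of 70 genes of the respiratory complexes 2 were higher and 2 lower, of 66 mitochondrial ribosomal proteins 0 and 4, of 13 enzymes of the tricarboxylic acid cycle 0 and 1, and of 29 cytosolic ribosomal proteins 0 and 0. The largest change among them was in ATPsynbeta, the catalytic beta subunit of the ATP synthase, with 2097, 2157, 2116 and 1830 in peroxide and 5314, 5536, 4685 and 5276 in sugar, 2.51-fold lower. COX8, a subunit of cytochrome c oxidase, fell 1.61-fold. The summed signal of the respiratory list was lower in peroxide without overlap (628905 to 674303 against 708706 to 736766 in sugar). That of the mitochondrial ribosomal proteins was lower too (55898 to 60329 against 64178 to 65502). Cytosolic ribosomal proteins summed higher without overlap (1008050 to 1033675 against 942999 to 976079), and the sums of the tricarboxylic acid cycle overlapped.

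The remaining genes among the 12 largest rises are less well known. CG10383 gave 43414, 52540, 47789 and 49719 in peroxide and 2189, 2673, 2666 and 2274 in sugar (19.5-fold), and CG14245 30844, 37630, 35567 and 36161 against 2266, 1600, 2319 and 1367 (18.6-fold). Spn88Eb, a serine protease inhibitor, rose 13.2-fold, CG12826 14.3-fold and CG15739 8.55-fold. Of the other large falls, yellow-e, of the yellow family of cuticle and pigment proteins, gave 32.8, 20.4, 31.9 and 27.4 in peroxide, all below the added 38.9, and 817, 792, 796 and 847 in sugar (12.7-fold). CG5107 fell 21.4-fold, CG15263 19.6-fold, CG11892 17.8-fold and CG12057 12.3-fold, and in all 4 of these genes hydrogen peroxide replicate 1 was the brightest of its group. CG12057 varied most, at 1354, 33.4, 178 and 805 in peroxide, and its change of log2 -3.62 became -4.26 without hydrogen peroxide replicate 1 and -2.83 without replicate 2.

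Flies exposed to ionizing radiation were also 11 days old after 2 days in sucrose vials, and the direct contrast of the 2 treatments tests where the response to peroxide differs from that to radiation. It called 550 genes higher in hydrogen peroxide and 551 lower, 5.08% and 5.09% of all genes, and 501 and 464 without ionizing radiation replicate 1, whose actin 3′ to 5′ ratio of 7.44 stood apart. Several of the largest peroxide changes did not pass this test. Nmdmc was at 11160, 14915, 12420 and 12648 after radiation, with a peroxide minus radiation difference of log2 0.60 (95% interval 0.19 to 1.01). For Hsp70 the difference was log2 0.30 (-0.42 to 1.03), for Gart -0.17 (-0.41 to 0.07) and for Shmt 0.00 (-0.39 to 0.40), so that differences of up to the bounds of these intervals remain possible.

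Other genes were higher in hydrogen peroxide than after radiation. LysX was at 162, 44.5, 29.4 and 32.3 after radiation, 8.81-fold below peroxide (adjusted p = 1.58e-08), and GstD5 at 447, 323, 241 and 463, 5.6-fold below. Neither had a radiation mean above its sugar mean, and the same held for CG15043, a gene of unknown role chosen after its values were seen, with 13188, 13799, 13952 and 13225 in peroxide, 1901, 2027, 1803 and 1905 in sugar and 1753, 1751, 1764 and 1942 after radiation. LpR1, Cht4 and dome were 3.72-fold, 5.55-fold and 2.53-fold higher in peroxide than after radiation, and GstD2 and Atg18b 2.61-fold and 1.95-fold. The reverse held for l(2)efl, at 31255, 33540, 29557 and 32270 after radiation and 2.04-fold lower in peroxide, and for Arc1, 2.51-fold lower in peroxide. Drs was 2.3-fold lower in peroxide than after radiation. Of the 33 gut proteases 13 were lower in peroxide than after radiation and 1 higher, of the 22 maltases and related enzymes 11 and 2, of the 17 midgut markers 1 and 1, and of the 21 accessory gland genes 4 and 0. Jon74E was 10.7-fold and Mal-A6 3.5-fold lower in peroxide than after radiation, while Acp36DE differed by log2 -0.11 (-0.43 to 0.20) and was not called.

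Stress controls on standard food show where the sugar level itself had moved. Over all genes 8.66% were higher and 9.75% lower in peroxide than in stress controls, and 1.97% and 1.23% in sugar than in stress controls. These comparisons share the 4 control arrays and are given side by side. Jon74E was at 43298 ± 2682 (SD, n = 4) in stress controls, 22604 ± 419.8 in sugar and 702 ± 288 in peroxide, with sugar minus stress controls at log2 -0.93 ± 0.20. CG12374 was 4.77-fold lower in sugar than in stress controls, with means of 10202 and 48743, and lower again in peroxide at 569. Lsp2, a storage protein of the fat body, was at 2429 in stress controls, 332 in sugar and 1051 in peroxide, so its 2.93-fold rise over sugar left it below the level on standard food (peroxide minus stress controls, log2 -1.19). Mal-B2 and Rel were higher in sugar than in stress controls (log2 1.28 and 0.82) and higher again in peroxide. For aay, Gart, GstD2, l(2)efl and Acp36DE the sugar minus stress controls values ran from log2 -0.24 to 0.19 and none was called, and the accessory gland sums were 330189 to 353228 in stress controls.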

How the data were processed

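RNA of 25 whole male flies per vial was hybridised to Affymetrix DrosGenome1 arrays, 1 vial per array. Signal intensities deposited by the authors come from MAS5, per the submitters' processing notes. On 31 of 35 arrays they were scaled to a common trimmed mean, and on the sugar arrays they were not. From these, all 35 arrays were quantile normalized, 38.9 was added (the 10th percentile) and log2 taken. Of 13966 probe sets that are not controls, 12444 matched 1 gene, and the brightest stood for each of 10827 genes. limma 3.58.1 in R 4.3.3 fitted 8 group means over all arrays, with Benjamini-Hochberg adjustment, a false discovery rate of 1% and 1.5-fold. The fit was tested on simulated data. Named genes were the 12 largest changes per direction, up to 5 called members per direction of each list, genes the study names and 8 defining genes; further list members were named after their values were seen. The members and lists were chosen with earlier results of these data known. Other scalings, filters, pseudocounts, models and left-out arrays were tried.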

Additional observations from a re-analysis of the deposited data

Results flagged for a closer look

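The 283 groups of 4 arrays examined covered the named genes and a few measures of array quality, such as the 3′ to 5′ ratios. In 17 of them, all of named genes, the highest or lowest array stood apart from the other 3 by more than the 95% limit of Dixon's test, which chance alone gives in about 1 in 20 groups. The reason for none of them was tested.

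Among the hydrogen peroxide arrays, replicate 2 was the lowest for Mthfs at 613 (others 1071 to 1123), CG8036 at 9666 (17092 to 18451), GstE12 at 3571 (4178 to 4304) and Jon99Ci at 258 (437 to 459), and the highest for aay at 22675 (16797 to 17656). Replicate 4 was the lowest for Hsc70-5 at 1245 (2363 to 2403) and Cht5 at 487 (668 to 711), and the highest for Hsp70 at 3077 (2463 to 2553) and Lpin at 9694 (7691 to 7841). Replicate 1 was the highest for CG6295 at 414 (32.0 to 44.5), and replicate 3 the lowest for Egfr at 332 (567 to 618).

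Among the sugar arrays, replicate 2 was the highest for Atg1 at 1564 (1207 to 1247) and the lowest for sty at 489 (669 to 706). Replicate 4 was the highest for Atg101 at 641 (528 to 542) and the lowest for Trxr1 at 5561 (5952 to 6018). Replicate 1 was the lowest for CCT1 at 1244 (1403 to 1436), and replicate 3 the highest for l(2)efl at 5933 (4824 to 4928).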

How the results depend on the processing

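The counts of 713 genes higher and 1000 lower stayed within 1.5 times under other scalings, pseudocounts, filters, array subsets and thresholds (561 to 995 higher, 776 to 1193 lower), and leaving out each array in turn gave 630 to 692 higher and 909 to 1012 lower. The exception was a fit of the 8 arrays with the replicate number as a block, with 430 higher and 543 lower. Arrays with the same number did not deviate together (r from 0.00161 to 0.0327). This does not settle whether the numbers pair the vials, and the block is given for completeness. Of 129 called genes named, 107 kept their direction and call under each of the 24 alternatives in which they had a value. Over all 137 genes examined, 18 pairs of gene and alternative had no value, because a signal filter had removed the gene. Averaging the probe sets of a gene reversed tim (log2 0.0166) and cnc (log2 0.35). Leaving out ionizing radiation replicate 1, added after seeing the data, as was the actin ratio as a covariate, gave 501 genes higher and 464 lower in hydrogen peroxide than after radiation. Signals near or below the added 38.9 limit what can be seen of genes such as upd2, and 4 arrays a group limit the precision of every value.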

Other observations

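Genes of the small chromosome 4 were lower in hydrogen peroxide more often than genes at large: of 57 measured, 0 were higher and 11 lower (19.3%, beside 9.24% of all genes), 46 had a negative change, and the median was log2 -0.31, beside 0.01 to 0.04 for the other chromosome arms. The median was -0.14 against stress controls and -0.15 against ionizing radiation, and 0.19 for sugar minus stress controls, which share arrays with these comparisons. Over the alternatives the median of the chromosome ran from -0.46 to -0.23. apolpp and ATPsynbeta, described above, are among the 11. This was noticed in the data and no test was made of it.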
